A study of Mus musculus with 20 samples.

Results

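The 9 genes described here, of 31053 in the count tables, belong to the p53 pathway: Trp53 itself, its inhibitor Mdm2, the p53 targets Cdkn1a, Ccng1, Trp53inp1, Phlda3, Zmat3 and Eda2r, and Cdkn2a, whose p19Arf product holds Mdm2 back. Their levels were followed in B, T and myeloid cells of spleens and sub-mandibular lymph nodes by single-cell RNA-sequencing, as counts of unique molecular identifiers (UMIs, 1 per captured RNA molecule) summed over the cells of a class in each library and scaled to the total UMIs of that class (CPM). The libraries held unselected live cells of mice whose strain is labelled C57BL/6N, while the methods place the Eµ-TCL1 mice used in the cross on C57BL/6J. Eµ-PRMT5 mice carry human PRMT5, an arginine methyltransferase, Eµ-TCL1 mice carry human TCL1, an oncogene, and Eµ-PRMT5/TCL1 mice carry both. Each transgene is driven in B lineage cells by an immunoglobulin heavy chain variable region promoter and µ enhancer, so that T and myeloid cells are not its intended site of expression. By the methods the Eµ-PRMT5 mice were heterozygotes bred from 3 founders, and the Eµ-TCL1 parent of the cross was homozygous. The paper's results state that 1 of these lines was selected for full study. Eµ-PRMT5 spleen 3 carries the animal number that the methods give to a founder. Tissue was taken when mice met the criteria for early removal. Spleens came from 5 mice of the first kind, 4 of the second and 4 of the third, and nodes from 3 of the Eµ-TCL1 mice and all 4 that carry both transgenes, which makes 20 libraries from 13 animals. No age or sex is given in the labels, and by the methods females and males were mixed. No transgene-free mouse was among the libraries, so every comparison is of 1 model with another.

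The p53 protein is a transcription factor that is kept scarce by Mdm2, a ubiquitin ligase that marks it for degradation. DNA damage, oncogene signalling and other stress stabilise p53, mostly without a rise of its own mRNA, and p53 then turns on genes that stop the cell cycle (Cdkn1a), restrain its own activity (Mdm2, Ccng1), promote death or repair, or dampen growth signals (Phlda3, an inhibitor of Akt). The Cdkn2a locus is switched on by oncogenes and links them to p53 through p19Arf and to the retinoblastoma pathway through p16Ink4a.

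Promoter windows are shown for the 4 members whose window held a match to the consensus p53 unit, since p53 binds target genes through pairs of such units. Each is the 250 bases before a start site in RefSeq (GRCm38.p6), written 5′ to 3′ on the gene's strand, with matches in capitals.
Cdkn1a, chr17:29090729-29090978, plus strand: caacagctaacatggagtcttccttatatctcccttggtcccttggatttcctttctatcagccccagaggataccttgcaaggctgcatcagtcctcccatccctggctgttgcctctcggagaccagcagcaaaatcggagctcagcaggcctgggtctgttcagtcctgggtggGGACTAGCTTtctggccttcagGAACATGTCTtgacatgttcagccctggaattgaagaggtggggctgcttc
Mdm2, chr10:117710759-117711008, minus strand: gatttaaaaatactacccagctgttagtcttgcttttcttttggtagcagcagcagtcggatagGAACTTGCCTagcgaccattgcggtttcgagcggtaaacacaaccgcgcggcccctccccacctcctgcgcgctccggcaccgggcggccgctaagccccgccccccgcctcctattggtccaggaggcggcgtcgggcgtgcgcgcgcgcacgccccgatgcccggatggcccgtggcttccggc
Ccng1, chr11:40755287-40755536, minus strand: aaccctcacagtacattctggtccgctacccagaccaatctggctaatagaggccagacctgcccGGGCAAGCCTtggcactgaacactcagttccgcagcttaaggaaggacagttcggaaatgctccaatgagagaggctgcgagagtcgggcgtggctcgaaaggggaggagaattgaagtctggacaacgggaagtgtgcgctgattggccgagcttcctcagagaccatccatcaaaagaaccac
Trp53, chr11:69580109-69580358, plus strand: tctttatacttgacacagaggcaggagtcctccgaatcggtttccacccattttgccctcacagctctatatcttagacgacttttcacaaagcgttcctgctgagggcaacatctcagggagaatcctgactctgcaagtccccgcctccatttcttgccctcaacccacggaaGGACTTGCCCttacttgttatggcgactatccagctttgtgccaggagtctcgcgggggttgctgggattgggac
The Cdkn1a window held 2 units, which began 73 and 51 bases before the start, and the others held 1, at 186 bases in Mdm2, 185 in Ccng1 and 75 in Trp53. Over 32851 windows of this length, searched on both strands, 7.13% held a unit and 0.0639% held 2 with at most 13 bases between them. No match was found in the second Cdkn1a window, in either window of Cdkn2a, or in those of Phlda3 and Eda2r. The AP-1 motif TGANTCA, found in 6.75% of all windows, and the Atf/Creb motif TGACGTCA, found in 1.55%, were in 0 of the 9 windows of members. These are matches of letters and not measured binding, and p53 sites further from the start lie outside the windows. Trp53inp1 and Zmat3 had no window in the reference table.

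B cells were those with at least 3 Cd79a and Cd79b UMIs, no Cd3d, Cd3e or Cd3g UMI and fewer than 20 Jchain UMIs, and numbered 30890 (194 to 5139 a library, 1458996 to 33358903 UMIs). T cells (30114) and myeloid cells (4809, with at least 20 in 17 libraries) were set by Cd3 and by Tyrobp and Fcer1g UMIs. Markers that the class rules did not use mostly separated the classes. Ms4a1, a B cell surface protein, was at 64.5 to 1479 CPM in B cells and at most 8.37 CPM in T cells, and Pax5, a B lineage transcription factor, at 20.3 to 108.7 CPM and at most 0.861 CPM. Ebf1, another B lineage factor, was as low as 3.34 CPM in B cells and reached 3.38 CPM in T cells and 29.2 CPM in myeloid cells. In B cells the T cell kinase Lck reached 187 CPM, while the other T cell genes Trac, Trbc2, Cd28 and Lat reached at most 8.65, 2.91, 2.67 and 4.16 CPM. The sum of 8 myeloid markers was 164 to 3375 CPM in B cells, led by S100a8 and S100a9 at up to 1219 and 1628 CPM. The part of these signals in the members' values was not tested. Eµ-PRMT5 spleen 4 stood apart: its B cells had the lowest Ms4a1, Pax5 and Ebf1, and their sum with the B cell receptor inhibitor Cd22 was 111 CPM, from 548 to 1960 CPM in the other libraries. It also had the highest sum of 6 cell cycle genes in B cells (859 CPM, from 15.8 to 469 CPM elsewhere) and a T class of only 52 cells whose sum of 8 myeloid markers was 8220 CPM. In T cells of the other libraries the myeloid sum ran from 154 CPM to 7376 CPM, the latter in an Eµ-PRMT5/TCL1 spleen. Its part in the members' T cell values was not tested. The limit of 0 Cd3 UMIs kept 30.6% to 98.4% of otherwise qualifying B cells, and under 50% in 5 libraries, Eµ-PRMT5 spleen 4 among them. The mouse genes Prmt5 (17.1 to 41.3 CPM in B cells) and Tcl1 (0 in each library) do not check the labels, since the transgenes are human. Fewer cells of a subtype and less RNA per cell cannot be told apart in these summed values.

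The first question was whether the p53 pathway differed between models in B cells, the intended site of expression of the transgenes. In spleen, none of the 8 members that passed the filter on low counts changed between any 2 of the 3 models at an adjusted p under 0.05 (edgeR's quasi-likelihood test, adjusted over all genes). Of all 11536 genes, 0.026% were called between Eµ-PRMT5 and Eµ-TCL1, 0.00867% between Eµ-PRMT5/TCL1 and Eµ-TCL1, and 0% between Eµ-PRMT5/TCL1 and Eµ-PRMT5. In the same order 1965, 525 and 1017 genes had an unadjusted p under 0.05. DESeq2 called 675, 20 and 108, and Phlda3, among the 675, was the only member. Without Eµ-PRMT5 spleen 4 edgeR called 343 in the first comparison, with 0 members among these 343. These 3 comparisons share their groups. For spleens with both transgenes against Eµ-TCL1 spleens the 8 log2 differences ran from -0.44 ± 0.62 (Phlda3) to 0.29 ± 0.30 (Zmat3), with an adjusted p of 1 for each, and from Eµ-PRMT5 they ran from -0.33 ± 0.15 (Mdm2) to 1.60 ± 0.62 (Phlda3). The members' values stand below as levels with their spread, and a p that misses the threshold does not show that the models were alike.

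**Figure D1:**
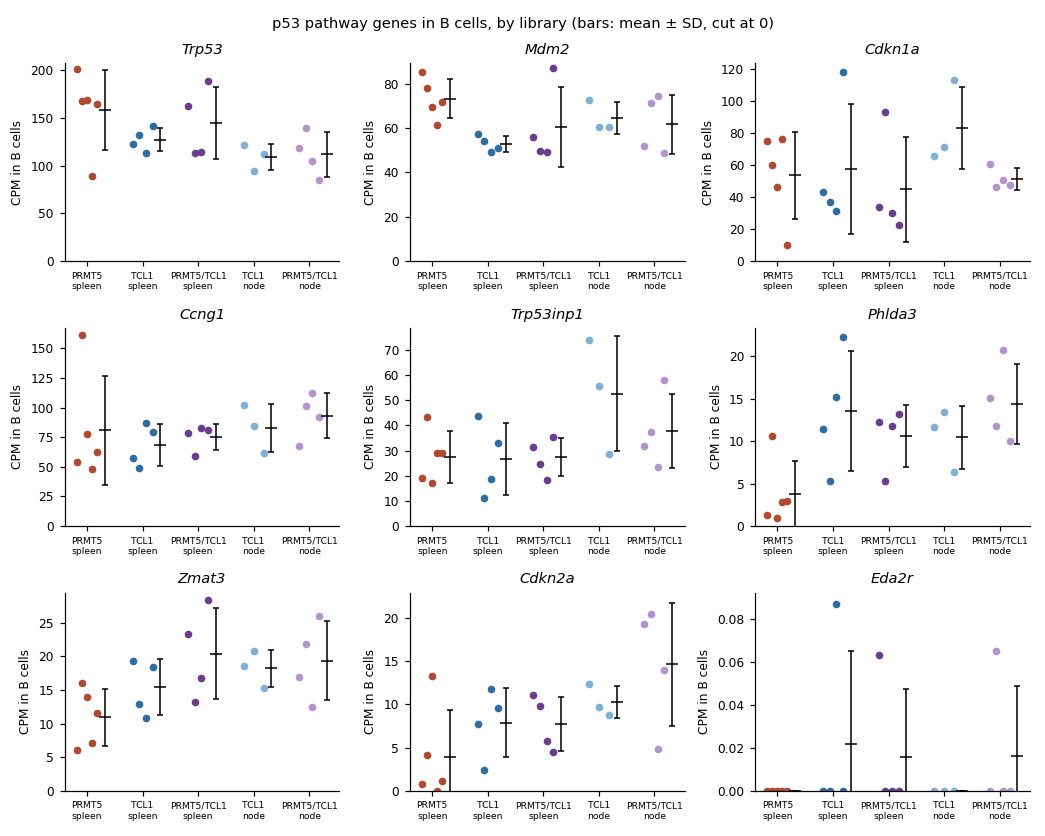
Level of each p53 pathway gene in B cells, in CPM (vertical axis from 0), for the 20 libraries in 5 groups of model and tissue. Points are libraries and bars are group means ± SD, cut at 0; Phlda3 is lowest in 4 of the 5 Eµ-PRMT5 spleens and Eda2r is at or near 0 in every library.

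Trp53 itself was at 201, 168, 169, 88.9 and 165 CPM in the 5 Eµ-PRMT5 spleens, at 122, 132, 113 and 141 CPM in the Eµ-TCL1 spleens and at 162, 113, 114 and 189 CPM in the Eµ-PRMT5/TCL1 spleens. The groups overlapped, with Eµ-PRMT5 spleen 4 the lowest of all 13. The log2 difference of Eµ-PRMT5 from Eµ-TCL1 was 0.21 ± 0.18 (SE; adjusted p = 0.565), and 0.30 without Eµ-PRMT5 spleen 4 (adjusted p = 0.239).

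Mdm2 stood at 85.1, 77.9, 69.7, 61.5 and 71.8 CPM in Eµ-PRMT5 spleens against 57.3, 54.3, 49.2 and 51.0 CPM in Eµ-TCL1 spleens. Every Eµ-PRMT5 library was above every Eµ-TCL1 library, as was so in 1 direction or the other for 4.96% of all genes tested. The log2 difference was 0.39 ± 0.15, which did not pass the test (adjusted p = 0.209). In Eµ-PRMT5/TCL1 spleens Mdm2 was at 55.9, 49.6 and 49.4 CPM, near the Eµ-TCL1 level, and at 87.1 CPM in spleen 4. The summed level of 6 stress genes (Atf3, Jun, Fos, Egr1, Hspa1a and Hspa1b) was 354 to 2447 CPM in B cells of Eµ-PRMT5 spleens. That range holds the 378 to 716 CPM of Eµ-TCL1 spleens. The sum was 2145 CPM in Eµ-PRMT5/TCL1 spleen 4 against 282 to 504 CPM in the other 3. When cells with any Atf3 UMI were left out, the log2 difference of Mdm2 between Eµ-PRMT5 and Eµ-TCL1 was 0.45 (adjusted p = 0.194). Cells with UMIs of the other stress genes stayed in under that setting. The part of the stress genes in the difference was not tested.

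Phlda3, the Akt inhibitor, had the largest fitted difference of the members between models in spleen B cells. It was at 1.26, 10.6, 0.887, 2.84 and 2.97 CPM in Eµ-PRMT5 spleens, at 11.4, 5.34, 15.1 and 22.2 CPM in Eµ-TCL1 spleens and at 12.2, 5.27, 11.7 and 13.2 CPM in Eµ-PRMT5/TCL1 spleens. Only Eµ-PRMT5 spleen 2, with 28 UMIs in 273 B cells, reached the levels of the other models. The log2 difference of Eµ-PRMT5 from Eµ-TCL1 was -2.04 ± 0.62 (adjusted p = 0.143), and -2.72 without Eµ-PRMT5 spleen 2 (adjusted p = 0.125). DESeq2, the alternative tool, called it, with a log2 difference of -2.002 and an adjusted p of 0.0298, in a comparison in which it called 675 genes. Eµ-PRMT5/TCL1 was above Eµ-PRMT5 by a log2 difference of 1.60 ± 0.62 (adjusted p = 0.508), or 2.28 without Eµ-PRMT5 spleen 2, and its values overlapped those of Eµ-TCL1.

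Zmat3, a p53-induced RNA-binding protein, was at 6.03, 15.96, 13.9, 7.10 and 11.6 CPM in Eµ-PRMT5 spleens, 19.3, 12.9, 10.8 and 18.4 CPM in Eµ-TCL1 spleens and 23.3, 13.2, 16.7 and 28.4 CPM in Eµ-PRMT5/TCL1 spleens. Eµ-PRMT5/TCL1 was 0.90 ± 0.28 above Eµ-PRMT5 on the log2 scale (adjusted p = 0.453), with overlapping values.

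Cdkn1a, which encodes the cell cycle inhibitor p21, varied more within models than between them. It was at 75.0, 60.0, 46.6, 76.3 and 10.4 CPM in Eµ-PRMT5 spleens, at 43.4, 36.8, 31.6 and 118 CPM in Eµ-TCL1 spleens and at 33.9, 92.9, 29.9 and 22.4 CPM in Eµ-PRMT5/TCL1 spleens. A single library in each model lay far from the rest of its group, low in Eµ-PRMT5 spleen 5 and high in Eµ-TCL1 spleen 4 and Eµ-PRMT5/TCL1 spleen 2. The log2 difference of Eµ-PRMT5 from Eµ-TCL1 was -0.12 ± 0.59 (adjusted p = 0.939). It ran from -0.99 with Xist as a covariate to 0.47 without Eµ-TCL1 spleen 4, and was -0.44 without Eµ-PRMT5 spleen 4 and 0.14 without Eµ-PRMT5 spleen 5. Xist, a transcript of female cells, stands in for sex, which the labels do not give. Cdkn1a overlaps another annotated gene on the opposite strand; the 8 other members overlap none.

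Ccng1, a cyclin-like regulator of Mdm2, was at 53.8, 161, 77.9, 48.6 and 62.3 CPM in Eµ-PRMT5 spleens, where spleen 2 stood alone. It ran from 49.4 to 87.0 CPM in Eµ-TCL1 spleens and reached 59.0 to 82.5 CPM with both transgenes, and the log2 difference of Eµ-PRMT5 from Eµ-TCL1 was 0.12 ± 0.30 (adjusted p = 0.877). Without Eµ-PRMT5 spleen 2 it was -0.23, and that of Eµ-PRMT5/TCL1 from Eµ-PRMT5 went from -0.07 to 0.27. Trp53inp1, a stress-induced cofactor of p53, had group means of 27.4 ± 10.5 (SD, n = 5), 26.7 ± 14.5 (n = 4) and 27.6 ± 7.55 CPM (n = 4) in the same order. Eda2r, a receptor of the tumour necrosis factor family, had 3 UMIs in all B cells of the 13 spleens and was tested in no comparison; a count of 0 allows at most 0.0899 CPM in the deepest of them, Eµ-TCL1 spleen 2, and 1.14 CPM in Eµ-PRMT5 spleen 2.

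Cdkn2a in B cells was at 0.841, 4.18, 13.3, 0 and 1.19 CPM in Eµ-PRMT5 spleens, at 7.77, 2.46, 11.8 and 9.62 CPM in Eµ-TCL1 spleens and at 11.1, 9.78, 5.77 and 4.53 CPM in Eµ-PRMT5/TCL1 spleens. In 3 Eµ-PRMT5 spleens it was below all libraries of the other models and in spleen 3 it was the highest of the 13. Under a wider B rule that lets in cells with few Cd3 UMIs, Eµ-PRMT5/TCL1 spleen 2 was at 15.4 CPM, above the 12.9 CPM of that library. The log2 difference of Eµ-PRMT5 from Eµ-TCL1 was -1.23 ± 0.93 (adjusted p = 0.528). It was -2.72 without Eµ-PRMT5 spleen 3 (adjusted p = 0.244) and -0.87 without Eµ-PRMT5 spleen 4 (adjusted p = 0.464). Counting from the 3′ end joins transcripts of p16Ink4a and p19Arf, which share their last exons.

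The 0 in Eµ-PRMT5 spleen 4 came with a gap along the chromosome, a pattern chosen after its values were seen. Among 797 B cells of that library with 14086161 UMIs, no Cdkn2a UMI was found, which allows at most 0.213 CPM, and the wider B rule that lets in cells with few Cd3 UMIs found 1 UMI of 35312754. Cdkn2a lies on chromosome 4 at 89274471 to 89294653 (GRCm38, minus strand). Its neighbours there are Cdkn2b, another inhibitor of cyclin-dependent kinases (89306299 to 89311039), and Mtap, a methylthioadenosine phosphorylase (89137122 to 89181081). Cdkn2b had 0 UMIs in the same cells against 1.12 to 19.4 CPM in B cells of the other 12 spleens, and Mtap had 1 UMI (0.071 CPM) against 5.77 to 41.0 CPM. The next expressed gene in order, Klhl9, which lies 556 kb nearer the start of the chromosome, was at 9.73 CPM, inside the range of 4.34 to 20.1 CPM of the others. So was Focad beyond it at 2.56 CPM (1.05 to 3.58 CPM), and Mllt3 stood at 5.25 CPM, just under the lowest of the others, 5.51 CPM. Klhl9, Focad and Mllt3 all lie on the same side of Cdkn2a. No gene beyond Cdkn2b was compared, so the far end of the gap was not seen.

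**Figure D2:**
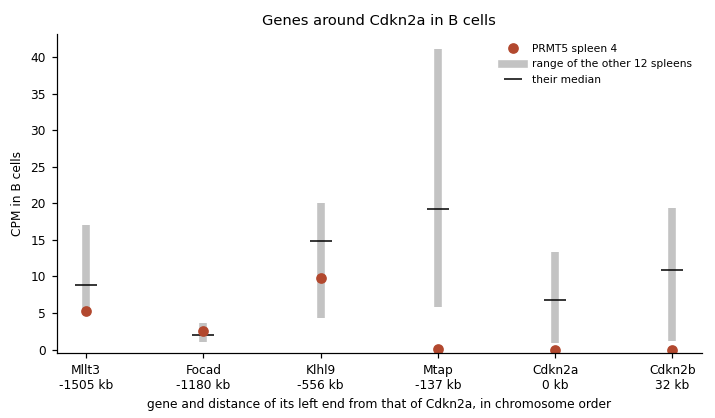
Level in B cells, in CPM, of the 6 expressed genes around Cdkn2a in chromosome order, with the distance of each from Cdkn2a in kb. No gene beyond Cdkn2b is shown. Red points are Eµ-PRMT5 spleen 4, grey bars span the other 12 spleens and black ticks are their medians; Mtap, Cdkn2a and Cdkn2b are at or near 0 in that library and Klhl9 and Focad are not.

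The same library's other cells did have these transcripts. Its 52 T cells, the class with the high myeloid sum, held 36 Cdkn2a, 11 Mtap and 8 Cdkn2b UMIs, and its 1016 myeloid cells held 55, 53 and 3. Of 8685 genes at a median of at least 5 CPM and above 0 in B cells of all the other 12 spleens, 17 had at most 1 UMI in the B cells of Eµ-PRMT5 spleen 4, and Mtap, Cdkn2a and Cdkn2b were 3 of them. In the other spleens, treated the same way, 0 to 25 genes did, with the 25 in Eµ-PRMT5 spleen 1 at 7136260 UMIs. Such a count depends on depth. The libraries nearest in depth, at 11486655 to 15656413 UMIs, had 1 (Eµ-TCL1 spleen 3), 1 (Eµ-PRMT5/TCL1 spleen 3) and 0 (Eµ-PRMT5/TCL1 spleen 4). The files hold RNA counts and no DNA copy number, and the origin of the gap was not tested.

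**Figure D3:**
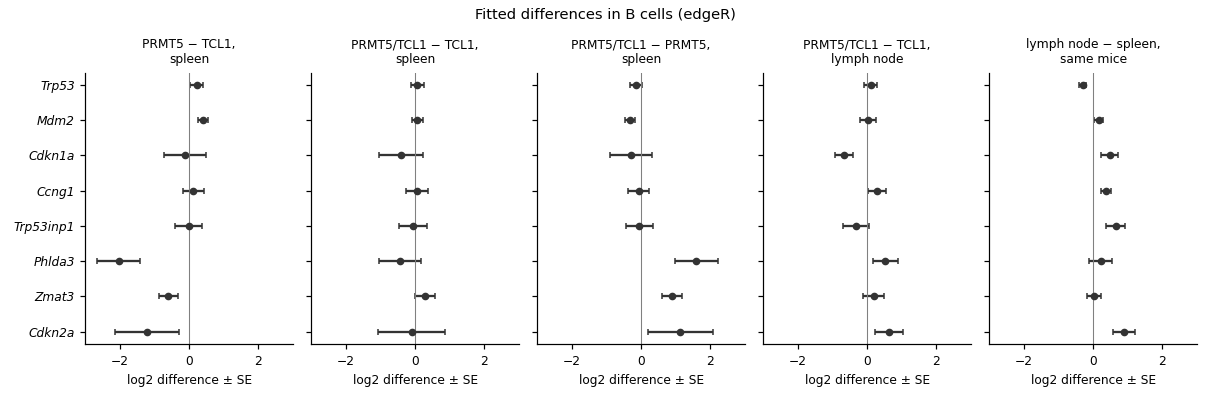
Fitted log2 differences in B cells for the 8 p53 pathway genes that passed the filter on low counts, with SE bars, in 4 comparisons of models and 1 of tissues in the same mice (edgeR). Phlda3 has the lowest value between Eµ-PRMT5 and Eµ-TCL1 spleens, at -2.04, and no point passed the adjusted threshold.

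The same held for the wider pathway. From 30 other p53 targets and 20 regulators of p53, 28 and 17 were tested in spleen B cells, and none passed in any of the 3 comparisons. Between Eµ-PRMT5 and Eµ-TCL1 the median log2 difference was 0.18 over the targets, 0.09 over the regulators and 0.01 over all genes. The targets nearest to a call were the proapoptotic Pmaip1 at 46.4 against 11.1 CPM (log2 difference 1.99 ± 0.55, adjusted p = 0.126) and the stress kinase Plk3 (1.67 ± 0.48, adjusted p = 0.134). The sum of the 6 stress genes had means of 1712 CPM in Eµ-PRMT5 (354 to 2447 CPM) and 473 CPM in Eµ-TCL1 (378 to 716 CPM), with overlap. Pmaip1 and Plk3 were also higher in B cells with Atf3, and the part of the stress genes was not tested.

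In B cells of lymph nodes, compared between mice with both transgenes and Eµ-TCL1 mice, again none of 8 members was called, as was none of 10896 genes (0%; 740 had an unadjusted p under 0.05, and DESeq2 called 64). Cdkn1a was at 60.7, 46.1, 50.9 and 47.4 CPM in Eµ-PRMT5/TCL1 nodes and at 65.8, 71.0 and 113 CPM in Eµ-TCL1 nodes, without overlap, which held for 6.3% of all genes. The log2 difference was -0.66 ± 0.26 (adjusted p = 0.722). It was -0.29 without Eµ-TCL1 node 3, the library at 113 CPM, and that node came from the mouse of the high Eµ-TCL1 spleen 4. The sum of 4 plasma cell markers also differed without overlap, at 583 to 693 CPM in B cells of Eµ-TCL1 nodes and 60.5 to 314 CPM in those with both transgenes, and its part was not tested. Cdkn2a was at 19.3, 20.5, 4.81 and 13.9 CPM in Eµ-PRMT5/TCL1 nodes and at 12.3, 9.67 and 8.79 CPM in Eµ-TCL1 nodes (log2 difference 0.62 ± 0.41, adjusted p = 0.86). The other 6 tested members had log2 differences from -0.32 ± 0.38 (Trp53inp1) to 0.53 ± 0.36 (Phlda3). That of Phlda3 was 0.84 without Eµ-TCL1 node 2, and 0.28 without Eµ-TCL1 node 3 or without Eµ-PRMT5/TCL1 node 3. Of the other lists, 27 targets and 17 regulators were tested and none was called.

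The second question was whether members differed between node and spleen of the same mouse, which 7 mice allowed. With the mouse as a block, no member was called in B cells (0.00912% of 10970 genes were). Trp53 was lower in the node in 7 of 7 mice: 122, 132 and 141 CPM in Eµ-TCL1 spleens became 121, 94.5 and 112 CPM in their nodes, and 162, 113, 114 and 189 CPM in Eµ-PRMT5/TCL1 spleens became 140, 84.5, 104 and 118 CPM. In the first Eµ-TCL1 mouse the values were nearly equal, and the log2 difference was -0.30 ± 0.10 (adjusted p = 0.287). Cdkn2a, Trp53inp1 and Ccng1 were each higher in the node in 5 of 7 mice, as were Mdm2, Cdkn1a and Phlda3. The log2 differences of Cdkn2a, Trp53inp1 and Ccng1 were 0.89 ± 0.32, 0.65 ± 0.27 and 0.37 ± 0.15, with adjusted p of 0.329, 0.414 and 0.394. That of Trp53inp1 was 0.39 without the mouse of Eµ-TCL1 spleen 2. Mdm2, Cdkn1a, Phlda3 and Zmat3 had log2 differences from 0.03 ± 0.20 (Zmat3) to 0.48 ± 0.25 (Cdkn1a). None of the 8 node differences, from -0.36 ± 0.56 (Trp53inp1) to 0.75 ± 0.67 (Phlda3), was called as unequal between Eµ-PRMT5/TCL1 and Eµ-TCL1 mice, nor was any of 10970 genes (0%; 196 had an unadjusted p under 0.05, and DESeq2 called 2). Both ends of that range turned when 1 Eµ-TCL1 mouse was left out, to 0.34 for Trp53inp1 without the mouse of spleen 2 and to -0.13 for Phlda3 without that of spleen 4.

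T cells of the same libraries gave the members' levels in cells that share the tissue but not the transgenes' target lineage. No member was called between models in spleen, where 0.0359%, 0% and 0% of 11147 genes were called in the order Eµ-PRMT5 against Eµ-TCL1, Eµ-PRMT5/TCL1 against Eµ-TCL1 and Eµ-PRMT5/TCL1 against Eµ-PRMT5 (682, 775 and 536 had an unadjusted p under 0.05, and DESeq2 called 26, 3 and 7). Beside Cdkn1a and Cdkn2a, log2 differences of the other 6 from Eµ-TCL1 ran from -0.20 ± 0.34 (Zmat3) to 0.50 ± 0.37 (Trp53inp1) in Eµ-PRMT5 and from -0.64 ± 0.36 (Zmat3) to 0.35 ± 0.39 (Trp53inp1) with both transgenes. The 0.50 of Trp53inp1 was 0.30 without Eµ-PRMT5 spleen 1 and 0.31 without Eµ-PRMT5 spleen 2. The -0.64 of Zmat3 was -0.30 without Eµ-TCL1 spleen 3. The 8 differences of Eµ-PRMT5/TCL1 from Eµ-PRMT5 ran from -0.78 ± 0.42 (Cdkn1a) to 0.63 ± 1.15 (Cdkn2a), and these were -0.43 and 2.42 without the 52 T cells of Eµ-PRMT5 spleen 4. Cdkn1a was at 112, 190, 151, 293 and 50.4 CPM in T cells of Eµ-PRMT5 spleens and at 101, 62.3, 47.7 and 43.7 CPM in those of Eµ-TCL1 spleens. All but 1 of the Eµ-PRMT5 libraries were above all Eµ-TCL1 libraries (log2 difference 1.29 ± 0.43, adjusted p = 0.75). The highest of them rested on the 52 T cells of Eµ-PRMT5 spleen 4, and without it the log2 difference was 0.94 (adjusted p = 0.468). With both transgenes it was 0.51 ± 0.44 above Eµ-TCL1 (adjusted p = 0.783). The sum of the 6 stress genes was 353 to 709 CPM in T cells of Eµ-PRMT5 spleens and 60.1 to 107 CPM in those of Eµ-TCL1 spleens. That range includes Eµ-PRMT5 spleen 5, where Cdkn1a was at 50.4 CPM, and the part of the stress genes was not tested.

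Cdkn2a in T cells was at 13.5, 24.8, 8.62 and 20.7 CPM in Eµ-PRMT5/TCL1 spleens, all above the 8.51, 5.45, 0.681 and 0 CPM of Eµ-TCL1 spleens, where the 0 allows at most 0.815 CPM. Such a gap between the groups was seen for 3.65% of all genes, and the log2 difference was 2.07 ± 1.18 (adjusted p = 0.701). In lymph node T cells the order was the same, with 12.95, 3.86, 3.05 and 8.95 CPM in Eµ-PRMT5/TCL1 nodes and 1.24, 2.12 and 1.40 CPM in Eµ-TCL1 nodes. There the log2 difference was 2.09 ± 0.51 (adjusted p = 0.186), groups did not overlap for 9.61% of all genes, and 0% of 10453 genes were called, 1482 having an unadjusted p under 0.05. DESeq2 called Cdkn2a there (adjusted p = 0.0283), among 115 genes. The 12.95 CPM rested on 5 UMIs in 66 cells and the 1.40 CPM on 4 UMIs, and the other 7 members had log2 differences in nodes from -0.52 ± 0.30 (Zmat3) to 0.39 ± 0.46 (Cdkn1a). Node and spleen of these mice are not independent. The sum of the 6 cell cycle genes was 144 to 715 CPM in T cells of Eµ-PRMT5/TCL1 spleens against 29.9 to 247 CPM in those of Eµ-TCL1 spleens. In nodes it was 78.9 to 199 CPM against 33.2 to 95.9 CPM. The ranges overlapped in both tissues, and the part of the cell cycle genes was not tested. Within mice, Cdkn2a in T cells was lower in the node than in the spleen in 6 of 7 (log2 difference -1.33 ± 0.42, adjusted p = 0.2; 0.0292% of 10265 genes were called), and the other 7 members had log2 differences from -0.46 ± 0.31 (Phlda3) to 0.16 ± 0.17 (Trp53). In Eµ-PRMT5 spleens it was at 1.01, 6.08, 1.46, 59.6 and 3.51 CPM, the 59.6 CPM again from the 52 cells of spleen 4, and the log2 difference from Eµ-TCL1 changed from 1.44 to -0.35 without that library.

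The difference between models was also compared across the classes, with the mouse as a block. For Phlda3, Eµ-PRMT5 minus Eµ-TCL1 was lower in B than in T cells by a log2 value of -2.45 ± 0.63 (adjusted p = 0.312; 0.0408% of 12262 genes were called). Phlda3 in T cells was at 6.09, 47.3, 32.2, 41.4 and 13.01 CPM in Eµ-PRMT5 spleens and at 9.33, 16.1, 41.2 and 24.7 CPM in Eµ-TCL1 spleens, with full overlap. DESeq2 called this difference between classes (adjusted p = 0.0338), among 64 genes. The other 7 tested members, from -2.60 ± 2.02 (Cdkn2a) to 0.11 ± 0.22 (Trp53), were not called by either tool, and that of Cdkn2a was -1.22 without Eµ-PRMT5 spleen 4 and -4.04 without Eµ-PRMT5 spleen 3. For Eµ-PRMT5/TCL1 with Eµ-TCL1 none of the 8 was called (0.00816% of genes were; 18 by DESeq2), with values from -2.54 ± 1.82 (Cdkn2a) to 0.82 ± 0.41 (Zmat3), or -1.65 and 0.41 without Eµ-TCL1 spleen 3.

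Myeloid cells were the thinnest class, with 33 cells in Eµ-PRMT5 spleen 5 and 43 in Eµ-TCL1 spleen 2, and 5 members passed the filter there. None was called between models in spleen, as was none of 9033 genes in each of the 3 comparisons (0%; 246, 170 and 249 had an unadjusted p under 0.05, and DESeq2 called 1, 0 and 0). Mdm2 was at 113, 195, 72.6, 184 and 108 CPM in Eµ-PRMT5 spleens, at 80.0, 67.2, 63.3 and 72.1 CPM in Eµ-TCL1 spleens, and at 90.0, 74.8, 113 and 319 CPM in Eµ-PRMT5/TCL1 spleens. The Eµ-TCL1 values lay closest together and overlapped those of both other models, and the other models had log2 differences from them of 0.92 ± 0.35 and 0.85 ± 0.36 (adjusted p = 1 for both). The second was 0.39 without Eµ-PRMT5/TCL1 spleen 4. The other 4 members ran from -0.28 ± 0.22 (Trp53) to 0.86 ± 0.53 (Trp53inp1) in Eµ-PRMT5 and from -0.14 ± 0.19 (Ccng1) to 0.36 ± 0.23 (Trp53) with both transgenes, and the 5 differences of Eµ-PRMT5/TCL1 from Eµ-PRMT5 from -0.89 ± 0.53 (Trp53inp1) to 0.64 ± 0.22 (Trp53). Without Eµ-PRMT5 spleen 3 the Trp53inp1 values of 0.86 and -0.89 were 0.43 and -0.45. The sum of the 6 stress genes in these cells was 414 to 2771 CPM in Eµ-PRMT5, 216 to 521 CPM in Eµ-TCL1 and 312 to 1063 CPM in Eµ-PRMT5/TCL1 spleens, and the myeloid marker sum of Eµ-PRMT5 spleens ran from 29427 to 176108 CPM, and their part was not tested. In nodes, where only Eµ-TCL1 node 3 and 3 Eµ-PRMT5/TCL1 nodes had at least 20 myeloid cells, the fit had 2 residual degrees of freedom and assumed that the single library varied like the others. None of 5 members, from -0.54 ± 0.64 (Trp53inp1) to 0.89 ± 0.48 (Mdm2), was called there (0.0996% of 6022 genes were), which does not show whether they differed.

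Members passed the test between cell classes of the same spleen, the third question. With the mouse as a block over 13 spleens, 6 of 8 tested members were lower in B than in T cells and 0 were higher, where 29.3% of 11106 genes were lower and 27.3% higher. Against myeloid cells 5 were higher in B cells and 2 lower (41.9% and 30.6% of all genes), and 6 were higher in T cells and 2 lower (41.9% and 30.2%). The median gene was itself 0.16 higher in B cells, and likewise in T cells, than in myeloid cells on the log2 scale, and the myeloid differences below are also given relative to it. Classes differ in intended transgene expression as well as in cell type, and these cannot be told apart here.

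**Figure D4:**
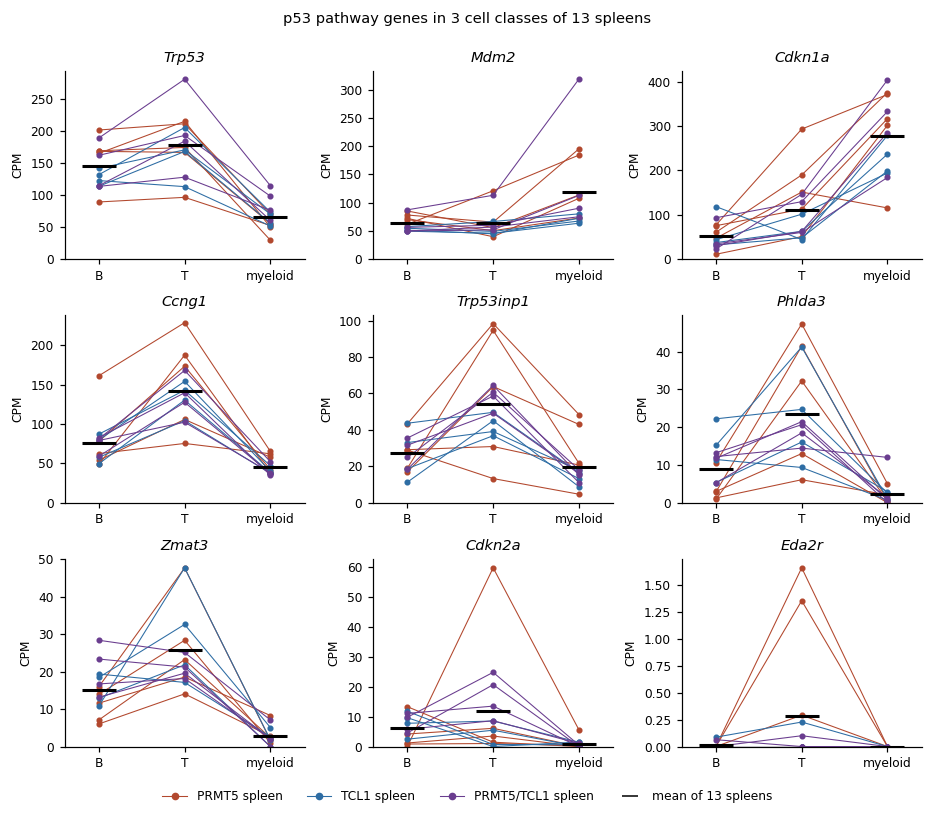
Level of the 9 p53 pathway genes, in CPM (axes from 0), in B, T and myeloid cells of the 13 spleens. Each line joins the classes of 1 spleen, coloured by model, and black ticks are means; the means of Cdkn1a and Mdm2 are highest in myeloid cells, and those of the other members are highest in T cells.

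Among the classes, Cdkn1a was lowest in B cells, at 10.4 to 118 CPM (median 43.4) against 43.7 to 293 CPM (median 101) in T cells and 115 to 404 CPM (median 285) in myeloid cells. It was lower in B than in myeloid cells in 13 of 13 spleens, by a log2 difference of -2.66 ± 0.25 (adjusted p = 2.37e-10; -2.81 relative to the median gene), and lower than in T cells in 12 of 13 (-1.05 ± 0.24, adjusted p = 0.000518). Mdm2 had medians of 57.3 CPM in B, 55.5 CPM in T and 90.0 CPM in myeloid cells. It was not called between B and T cells (log2 difference 0.09 ± 0.12, adjusted p = 0.541), and both classes were below myeloid cells in 13 of 13 spleens (-0.92 ± 0.12 and -1.01 ± 0.12; -1.08 and -1.18 relative to the median gene).

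Trp53 had medians of 141 CPM in B, 174 CPM in T and 60.0 CPM in myeloid cells. B cells were above myeloid cells in 13 of 13 spleens (log2 difference 0.99 ± 0.11, adjusted p = 8.8e-09; 0.83 relative to the median gene). They were below T cells in 11 of 13 by -0.27 ± 0.11 (adjusted p = 0.0322), a call that was lost under 10 of 21 alternatives (adjusted p up to 0.141), among them leaving out Eµ-PRMT5 spleen 1, 2 or 5, Eµ-TCL1 spleen 2 or 3, and spleen 3 or 4 of Eµ-PRMT5/TCL1. Ccng1 had medians of 77.9, 140 and 40.1 CPM in B, T and myeloid cells and was lower in B than in T cells in 13 of 13 spleens (-0.91 ± 0.11, adjusted p = 1.06e-07) and higher than in myeloid cells in 12 of 13 (0.56 ± 0.12; 0.41 relative to the median gene).

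Phlda3, Zmat3 and Cdkn2a were near 0 in myeloid cells. Phlda3 had medians of 10.6, 20.7 and 0.989 CPM in B, T and myeloid cells, Zmat3 of 13.9, 21.8 and 2.10 CPM, and Cdkn2a of 5.77, 6.08 and 0.344 CPM. Phlda3 and Zmat3 were higher in T than in B cells, by log2 differences of 1.52 ± 0.37 and 0.76 ± 0.21, and both were higher in B than in myeloid cells, by 2.37 ± 0.51 and 2.30 ± 0.26 (2.22 and 2.15 relative to the median gene). Cdkn2a was higher in B than in myeloid cells by 2.87 ± 0.79 (adjusted p = 0.00204; 2.72 relative to the median gene) and was not called between B and T cells (-0.26 ± 0.61). Trp53inp1, at medians of 28.9, 49.6 and 16.5 CPM, was lower in B than in T cells (-0.89 ± 0.25) and was not called between B and myeloid cells (0.50 ± 0.27, adjusted p = 0.103; 0.34 relative to the median gene). Between T and myeloid cells, log2 differences ran from -1.61 ± 0.24 (Cdkn1a) to 3.89 ± 0.50 (Phlda3), or -1.77 and 3.73 relative to the median gene. Eda2r had 11 UMIs in T cells and 0 in myeloid cells.

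Among the other p53 targets, 4 of 29 were higher and 11 lower in B than in T cells, where 27.3% of all genes were higher and 29.3% lower. The lower ones included Perp, a membrane protein of apoptosis (log2 difference -6.82 ± 0.56; mean 0.0912 against 15.8 CPM), the autophagy gene Dram1 (-2.95 ± 0.32), the death receptors Tnfrsf10b (-2.83 ± 0.36) and Fas (-2.55 ± 0.35), and the repair gene Ddb2 (-1.90 ± 0.20). Those that were higher were Sesn2, a sestrin that restrains mTORC1 (1.55 ± 0.16), the growth arrest gene Gadd45a (0.88 ± 0.27), Triap1 (0.52 ± 0.10) and the proapoptotic Bbc3 (0.42 ± 0.15). The median over the targets was -0.17, beside -0.02 over all genes. Against myeloid cells 12 of the 29 were higher and 7 lower in B cells (41.9% and 30.6% of all genes). In T cells 14 were higher and 5 lower than in myeloid cells (41.9% and 30.2% of all genes). Of 17 regulators, Mdm4, the partner of Mdm2 (0.40 ± 0.10), and the acetyltransferase Ep300 (0.52 ± 0.09) were higher in B than in T cells, and 3 (Hipk2, Rpl5 and Rchy1) were lower. Against myeloid cells 8 regulators were higher and 4 lower in B cells, and 9 were higher and 3 lower in T cells. The shares over all genes are those given above for the targets.

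Within B cells, members were compared between cells of the same spleen in different states. Cells with at least 2 Mki67 and Top2a UMIs, which mark dividing cells, were set against cells with 0. This used the 9 spleens with at least 20 of the first kind (26 to 519 cells). Spleen 4 was the only Eµ-PRMT5 spleen among these 9, and each of the rest came from a mouse with the TCL1 transgene. Cdkn2a and Cdkn1a rose in dividing cells and the other 6 tested members were not called, where 20.2% of 9769 genes rose and 20.3% fell. Cdkn2a went from a median of 3.70 CPM (0 to 11.5) to 16.7 CPM (0 to 26.98). It was higher in 8 of 9 spleens, all with the TCL1 transgene, and the 9th was Eµ-PRMT5 spleen 4 with 0 in both. Whether Cdkn2a rises in the other Eµ-PRMT5 spleens was not tested. The log2 difference was 1.76 ± 0.25 (adjusted p = 8.42e-05). Cdkn1a went from a median of 36.3 CPM (14.8 to 118) to 65.2 CPM (31.5 to 175), higher in 9 of 9 spleens (0.88 ± 0.17, adjusted p = 0.00105). Trp53 had medians of 118 and 139 CPM (0.12 ± 0.07, adjusted p = 0.239) and Mdm2 of 54.5 and 59.9 CPM (0.06 ± 0.09, adjusted p = 0.612). The other 4 had log2 differences from -0.32 ± 0.15 (Zmat3) to 0.24 ± 0.20 (Phlda3). Dividing cells held more RNA, with median UMIs of 10223 to 21034 against 4286 to 9864, and CPM corrects for depth but not for the composition of deeper cells.

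**Figure D5:**
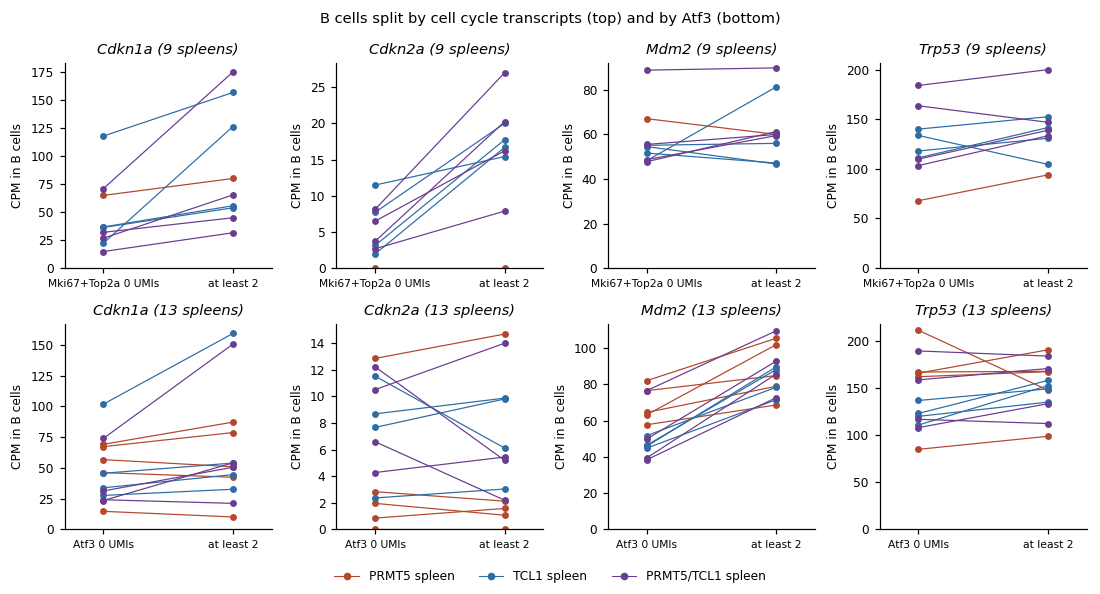
Levels of Cdkn1a, Cdkn2a, Mdm2 and Trp53 in B cells, in CPM (axes from 0), in cells without and with at least 2 UMIs of Mki67 and Top2a (top, 9 spleens) or of Atf3 (bottom, 13 spleens). Each line is 1 spleen, coloured by model. Cdkn2a rises with Mki67 and Top2a in 8 of 9 spleens, and Mdm2 rises with Atf3 in 13 of 13. The top row holds only 1 Eµ-PRMT5 spleen, spleen 4.

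Other targets that rose with division were Pidd1 (log2 difference 2.48 ± 0.23), Psrc1 (1.51 ± 0.25), Ddb2 (0.99 ± 0.13), Pmaip1 (0.61 ± 0.20), Rps27l (0.44 ± 0.07) and Ppm1d (0.28 ± 0.10), and Plk2 (-1.26 ± 0.15), the antiproliferative Btg2 (-0.92 ± 0.12) and Sesn1 (-0.66 ± 0.18) fell, of 26 tested. Among 17 regulators 3 rose, the checkpoint kinases Chek1 (3.37 ± 0.31) and Chek2 (1.60 ± 0.25) and the nucleolar Npm1 (0.54 ± 0.09), and 6 fell. Over all 9769 genes 20.2% rose and 20.3% fell. Psrc1 and Chek1 are known to follow the cell cycle.

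Cells with at least 2 UMIs of Atf3, a stress-induced transcription factor, were set against cells with 0 in all 13 spleens (42 to 852 cells with Atf3). Mdm2 and Cdkn1a rose and none of the other 6 tested members was called, from -0.13 ± 0.06 (Ccng1) to 0.22 ± 0.19 (Phlda3), where 22.7% of 9575 genes rose and 25.6% fell. Mdm2 went from a median of 51.8 CPM (38.4 to 82.1) to 85.7 CPM (68.7 to 110), higher in 13 of 13 spleens and in every model (log2 difference 0.56 ± 0.07, adjusted p = 7.57e-06). Cdkn1a went from a median of 45.6 to 50.9 CPM, higher in 9 of 13 spleens (0.29 ± 0.10, adjusted p = 0.0241), and this call was lost when Eµ-TCL1 spleen 4 was left out, and likewise for Eµ-PRMT5/TCL1 spleens 1, 2 and 3 in turn (adjusted p up to 0.0879 over all alternatives). Trp53 (0.02 ± 0.06, adjusted p = 0.826) and Cdkn2a (-0.09 ± 0.18, adjusted p = 0.708) were not called. Of 26 other targets 7 rose, among them Plk3 (1.79 ± 0.13), Plk2 (1.62 ± 0.28), Pmaip1 (1.40 ± 0.16) and Aen (0.69 ± 0.09), and 4 fell (Xpc, Ei24, Polk and Sesn1), and of 16 regulators 5 rose and 3 fell. Cells with Atf3 held 6103 to 23026 UMIs in the median against 4018 to 14754.5 without.

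Across the 13 spleens, the members did not form a single block in B cells. The closest pair were Trp53 and Mdm2 (Spearman's rho 0.77 over 13 libraries), followed by Ccng1 with Phlda3 (0.62) and Phlda3 with Zmat3 (0.59), while Cdkn1a had a rho between -0.32 and 0.07 with the other 7 members that passed the filter. These are descriptions over libraries of 3 models that share depth and cell makeup. The genes most like Trp53 were Atg16l1, Ppp4c and Fiz1 (0.98 each), those most like Mdm2 were Ube2j2 (0.98), Stt3a and Bud13 (0.97 each), and those most like Phlda3 were Cptp (0.96), Agpat3 (0.94) and Pgpep1 (0.91), of 11659 genes. The most like Cdkn1a, Mrps18a, reached 0.88.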

How the data were processed

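Single cells of 20 libraries were profiled with droplet 3′ chemistry. The deposited matrices hold UMI counts per gene and barcode, which the authors made with Cell Ranger against GRCm38 (the submitters' notes give version 2.0.1 and the matrix headers 3.1.0). Barcodes with at least 1/10 of the 99th percentile of the 3000 largest, 200 or more genes and no more than 10% of UMIs from mitochondria were called cells (87773), and 3542 probable doublets by Scrublet score (scanpy 1.11.5), as many as the loading predicts, were removed, since Scrublet's own limit marked under 0.5% in 14 libraries. Kept cells numbered 688 to 7631 a library, with a median of 3550 to 14306 UMIs. Libraries shared at most 2.13 times the barcodes that chance gives. B cells followed the rule given above; T cells had at least 2 Cd3 and at most 1 Cd79 UMIs, and myeloid cells at least 3 Tyrobp and Fcer1g UMIs, at most 1 Cd79 and no Cd3, Nkg7, Klrd1 or Ncr1 UMI, limits chosen here. Counts summed per library and class (at least 20 cells) were tested with edgeR 4.0.16 (TMM, filterByExpr, quasi-likelihood F test, Benjamini-Hochberg over all genes tested, threshold 0.05; SE as the log2 difference over the square root of F), with DESeq2 1.42.0 as the alternative, in R 4.3.3. Tissue, class and state comparisons had the mouse as a block; titles tie each node to a spleen by mouse number. Scripts were tested on simulated data. Limits for a count of 0 use 3 counts and cover counting error only. Other alternatives were no low-count filter, stricter class limits, at least 100 cells, a replicate block, Xist as a covariate, B cells without cycling or Atf3 UMIs, and each library left out; letting in B cells with few Cd3 UMIs and Scrublet's own limit were chosen after seeing the data. The members tested are described in each comparison by their values or by the range of their differences (Eda2r, too rare, was tested in none), and of 30 other targets and 20 regulators those called, or counts of them. Members and lists were chosen with earlier results of these data known. Each library is 1 tissue of 1 mouse. Gene models are GENCODE M21.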

Additional observations from a re-analysis of the deposited data

Results flagged for a closer look

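In 87 sets of 4 or 5 libraries of 1 gene, class and group, the highest or lowest library was tested for a wide gap to the rest (Dixon's test), and 14 sets passed. Independent, normally distributed values pass in about 1 of 20 sets. The sets here share libraries and some rest on few UMIs, so that rate cannot tell whether the 14 are an excess. In B cells these were Ccng1 at 161.1 CPM and Phlda3 at 10.64 CPM in Eµ-PRMT5 spleen 2 (273 cells), Cdkn1a at 118.2 CPM in Eµ-TCL1 spleen 4, and Cdkn1a at 92.9 CPM and, as the lowest, Ccng1 at 59.05 CPM in Eµ-PRMT5/TCL1 spleen 2 (260 cells). Cdkn1a in Eµ-TCL1 spleen 4 rested on 2480 UMIs in 2353 cells, beside 31.6 to 43.4 CPM in the rest of its group.

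In T cells they were Mdm2 at 93.25 CPM and Ccng1 at 261.6 CPM in Eµ-PRMT5/TCL1 node 1, on 66 cells, Cdkn2a at 59.65 CPM in Eµ-PRMT5 spleen 4, on 52 cells, and Mdm2 at 112.9 CPM in Eµ-PRMT5/TCL1 spleen 4, on 967 cells. Myeloid cells gave Mdm2 at 319.2 CPM in Eµ-PRMT5/TCL1 spleen 4 (405 UMIs; 74.8 to 113 CPM in its group), Cdkn1a at 115.1 CPM as the lowest in Eµ-PRMT5 spleen 3, and Cdkn2a at 5.58 CPM in Eµ-PRMT5 spleen 4. Zmat3 at 8.27 CPM in Eµ-PRMT5 spleen 5 and Phlda3 at 11.99 CPM in Eµ-PRMT5/TCL1 spleen 1 rested on 2 and 6 UMIs. Eµ-PRMT5/TCL1 spleen 4 thus had the highest Mdm2 of its group in T and in myeloid cells, and in B cells as well (87.1 CPM).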

How the results depend on the processing

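No called value changed direction, while 157 values that were called under neither setting did, over 59 pairs of a member and a comparison. Of 3562 member values under an alternative 3538 kept their side of the threshold, while 17 lost a call and 7 gained 1. DESeq2 called 1 member in place of 0 between Eµ-PRMT5 and Eµ-TCL1 in spleen B cells (Phlda3), between Eµ-PRMT5/TCL1 and Eµ-TCL1 in node T cells (Cdkn2a), and for Eµ-PRMT5 against Eµ-TCL1 in B minus T cells (Phlda3). With Atf3, members called went from 2 to 1 with no low-count filter, with stricter class limits and with at least 100 cells, Cdkn1a being lost, and ranged from 1 to 3 when 1 library was left out (1 when that was Eµ-TCL1 spleen 4, or spleen 1, 2 or 3 of Eµ-PRMT5/TCL1, and 3 without Eµ-TCL1 spleen 1, where Ccng1 was called lower, as it also was under DESeq2). Trp53inp1 passed between B and myeloid cells without Eµ-PRMT5 spleen 3 (log2 difference 0.68, adjusted p = 0.0154), and Zmat3 as lower in dividing B cells without Eµ-PRMT5/TCL1 spleen 4 (-0.46, adjusted p = 0.0395). Of 38 uncalled member differences of at least 0.5 on the log2 scale, 23 moved by over 1.5 times when 1 library or mouse was left out, 2 of them turning. Counts over all genes moved too: between Eµ-PRMT5 and Eµ-TCL1 in spleen B cells, 3 became 675 under DESeq2, 343 without Eµ-PRMT5 spleen 4 and 86 without Eµ-PRMT5 spleen 5, and between node and spleen 1 became 274 in B cells and 3 became 412 in T cells under DESeq2. The cause was not tested. Replicate numbers across models share only a number (correlations of same-numbered spleens -0.05 to 0.21, 3 of 12 over 0.1); with them as a block, 0 members were called in each comparison of models, and without the mouse block 0 were called between tissues. Myeloid node cells could not be fitted with at least 100 cells, with the block, or without Eµ-TCL1 node 3. Low UMI counts limit Phlda3, Zmat3 and Cdkn2a in myeloid cells and Eda2r everywhere.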

Other observations

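The genes closest in pattern to the other members over the 13 spleens, again as a description of B cells, were Ddit4 (Spearman's rho 0.92), Lpgat1 (0.91) and Rnf170 (0.89) for Ccng1, Ern1 (0.85) and Snrpc (0.84) after Mrps18a for Cdkn1a, and Eif2ak2 (0.81), Mknk1 (0.80) and Msra (0.78) for Trp53inp1. For Cdkn2a they were Mrpl24 (0.87), Rfesd (0.86) and Bloc1s6 (0.85), and for Zmat3 3300002I08Rik and Capn10 (0.87 each) and Haghl (0.85).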
